A study of Rattus norvegicus with 6 samples.

Results

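The antigen presentation genes examined here are Cd74, the chains RT1-Da, RT1-Db1, RT1-Ba and RT1-Bb of the rat class II molecules, their regulator Ciita, the class I components B2m, Tap1 and Tap2, and the lipid-presenting molecule Cd1d1. They were chosen by name, as non-control probes whose RefSeq accession belongs to a listed rat symbol. All 10 genes were found, on 12 of the 18355 named probes, out of 15443 named genes on the array. RT1-Bb and RT1-Db1 have 2 probes each, and the brighter one over the 6 arrays stood for the gene.

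The study measured RNA on 6 one-colour Agilent arrays of Sprague Dawley rats, 13 weeks old. The labels carry no transgene or mutation for any group. Myocardium came from 1 sham-operated rat, from 1 infarcted heart injected in the muscle wall with phosphate-buffered saline (PBS), and from infarcted hearts injected with adipose-derived stem cells (ADSCs) carrying 124I-HIB, a radioiodinated lipophilic ester used to trace cells by imaging (replicates 1 and 3, called treated). All 4 heart samples are dated to day 21 after a sham operation, also where the heart was infarcted. Cultured ADSCs, mesenchymal cells grown from fat, came as 1 unlabelled and 1 124I-HIB-labelled sample, both at day 14 of culture. The labels do not say that the treated pair are separate animals, so p-values resting on them cover only how far these 2 arrays differ, and that spread may be technical. Every other group is 1 array, so its differences have no replicate check.

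Cells show the immune system what they contain by loading pieces of protein onto major histocompatibility complex (MHC) molecules. Class I molecules, a heavy chain with B2m, take peptides that the Tap1-Tap2 pump carries into the endoplasmic reticulum, and nearly all nucleated cells make them. Class II molecules, pairs of an alpha and a beta chain escorted by Cd74, take peptides from swallowed protein, and are made mainly by macrophages, dendritic cells and B cells under the control of Ciita. In the heart such cells are a minority beside muscle cells, endothelium and fibroblasts.

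Each array held 58717 spots that were not controls, of which 521 to 752 were flagged as outliers and left out and 0 were saturated, and between 64.4% and 69.4% of probes were well above background. A level below is the log2 signal of a probe minus the 75th percentile of its array, so a level of 0 lies at that percentile. Levels of different probes are not set against each other, because probes differ in how brightly they hybridise. The cardiomyocyte markers Tnni3, Tnnt2 and Actc1 were lower in ADSCs than in myocardium (log2 differences -13.54, -9.53 and -8.39). Of the 7 mesenchymal markers Col1a1, Cd44 and Pdgfrb were 4.34, 3.13 and 1.74 higher, and Thy1 was well above background in cells only. Itgb1 differed by 1.19, Nt5e by only 0.37 and Eng by -0.24. The hearts were hybridised in 1 row of the slide and the ADSCs in another, so slide row and sample type cannot be told apart.

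Class II promoters carry X and Y boxes bound by RFX, CREB and NF-Y, on which Ciita is recruited. Class I heavy chain and B2m promoters carry a related module, together with sites for interferon-regulated factors (IRF). The promoters below, positions -160 to -31 from the RefSeq start in assembly GRCr8, are shown so that the letters of the class II and class I genes can be read side by side. Capitals mark a Y box (CTGATTGG), an X1 core (AGCAAC), an X2 palindrome (TGACGTCA) or an IRF pair (TTTC and again TTTC, with any 2 bases between), searched on both strands with no overlapping matches found. The stretches are RT1-Da at chr20:4515255-4515384 (plus strand), RT1-Db1 at chr20:4560193-4560322 (minus strand), RT1-Ba at chr20:4576897-4577026 (plus strand), RT1-Bb at chr20:4604149-4604278 (minus strand), Cd74 at chr18:56527046-56527175 (plus strand), B2m at chr3:129549170-129549299 (plus strand), Tap2 at chr20:4652327-4652456 (minus strand) and Tap1 at chr20:4668574-4668703 (minus strand).
RT1-Da: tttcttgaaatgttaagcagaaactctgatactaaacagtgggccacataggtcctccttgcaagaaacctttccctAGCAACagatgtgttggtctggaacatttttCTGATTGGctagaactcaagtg
RT1-Db1: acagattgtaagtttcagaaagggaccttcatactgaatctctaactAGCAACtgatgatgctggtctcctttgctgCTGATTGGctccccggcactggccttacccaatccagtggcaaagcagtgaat
RT1-Ba: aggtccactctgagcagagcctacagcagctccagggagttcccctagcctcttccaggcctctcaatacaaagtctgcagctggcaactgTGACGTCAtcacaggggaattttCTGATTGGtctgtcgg
RT1-Bb: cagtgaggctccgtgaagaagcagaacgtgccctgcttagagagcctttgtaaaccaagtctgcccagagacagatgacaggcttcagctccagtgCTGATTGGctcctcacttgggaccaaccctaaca
Cd74: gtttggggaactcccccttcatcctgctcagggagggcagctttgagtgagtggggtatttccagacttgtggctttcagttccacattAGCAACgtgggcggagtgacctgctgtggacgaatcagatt
B2m: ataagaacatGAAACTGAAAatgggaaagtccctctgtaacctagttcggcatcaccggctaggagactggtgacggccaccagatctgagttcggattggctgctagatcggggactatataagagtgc
Tap2: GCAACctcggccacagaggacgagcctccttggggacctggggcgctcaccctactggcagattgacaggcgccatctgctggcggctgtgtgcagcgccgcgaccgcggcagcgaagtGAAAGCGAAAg
Tap1: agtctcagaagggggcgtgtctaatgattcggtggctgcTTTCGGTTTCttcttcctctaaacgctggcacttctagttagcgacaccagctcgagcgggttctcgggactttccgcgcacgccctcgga

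Promoters of 9 of the 10 genes were in the RefSeq table, each as 300 bases with 250 before the start and 50 after it. The Y box was found in 4 of the 9, which were the 4 RT1 class II chains, against 3.50% of all 33469 promoters. The X1 core was found in 4 (RT1-Da, RT1-Db1, Cd74 and Tap2) against 14.7%, the X2 palindrome in RT1-Ba alone against 1.83%, and the IRF pair in 3 (B2m, Tap1 and Tap2) against 3.92%. RT1-Da and RT1-Db1 held both an X1 core and a Y box, as did 0.559% of all promoters. In RT1-Da the X1 core began at -83 and the Y box at -52, and in RT1-Db1 they began at -113 and -83. In Tap2 the X1 core began at -161, so its first base lies outside the stretch shown. A match describes these letters only, and a missing match says nothing about binding. The 4 RT1 chains and both Tap genes lie on chromosome 20 in the order RT1-Da, RT1-Db1, RT1-Ba, RT1-Bb, Tap2, Tap1, and Ciita, Cd74, Cd1d1 and B2m lie on chromosomes 10, 18, 2 and 3.

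Cd74 and 3 of the 4 class II chains were well above background in every heart and far lower in cultured ADSCs. Cd74, the invariant chain that escorts class II molecules, had levels of 4.30 in sham, 3.68 in PBS, 4.20 in treated replicate 1, 4.07 in treated replicate 3, and -5.34 and -5.43 in unlabelled and labelled ADSCs. All hearts lay above both cell arrays, PBS was the lowest heart, and the treated pair lay between PBS and sham. The mean of the cell arrays was 698-fold below that of the hearts, a log2 difference of -9.45 (SE 0.20, limma adjusted p = 3.43e-07). That fit pooled the 4 hearts of different conditions as 1 group, and the unlabelled and labelled ADSCs as the other. Its p-values, here and below, take differences between conditions as spread. They do not measure variation between cultures of 1 kind, which was not sampled. In bulk RNA fewer cells of a type and less RNA per cell cannot be told apart, here or in the results that follow.

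RT1-Da, the alpha chain of the RT1-D molecule (the rat counterpart of HLA-DR), had levels of -0.0011 in sham, 0.32 in PBS, 0.17 in treated replicate 1, 0.60 in treated replicate 3, and -7.40 and -7.80 in the ADSCs, where the probe was not well above background. The hearts did not overlap the cells, and treated replicate 3 was the highest heart. Its signal in hearts was at least 234-fold higher than in ADSCs, the cells' own dim signal serving as the bound (limma adjusted p = 8.57e-07).

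RT1-Db1, the beta chain of the same molecule, stood at 0.54 in sham, 0.83 in PBS, 0.55 and 1.02 in the treated pair, and -3.36 and -3.93 in ADSCs on the probe used. Both cell arrays were well above background and 20.8-fold below the heart mean (log2 difference -4.38, SE 0.22, limma adjusted p = 1.17e-05). Its other probe read -0.25, -0.14, 0.56 and 0.28 in sham, PBS and treated replicates 1 and 3, and was not well above background in either cell sample. The probes therefore disagree on whether ADSCs gave a signal, and also on the hearts. On the other probe both treated arrays lay above PBS, by 0.70 and 0.42, whereas on the probe used the differences were -0.27 and 0.20.

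RT1-Bb, the beta chain of the RT1-B molecule (the counterpart of HLA-DQ), had levels of 0.63 in sham, 0.88 in PBS, 0.11 in treated replicate 1, 1.27 in treated replicate 3, and -5.62 and -6.07 in ADSCs. The treated arrays were the lowest and the highest heart. Cells lay 94.8-fold below hearts (log2 difference -6.57, SE 0.33, limma adjusted p = 1.11e-05). The other RT1-Bb probe behaved differently, at -7.65 in sham, -7.65 in PBS, 0.27 in treated replicate 1 and -6.43 in treated replicate 3, and was well above background on treated replicate 1 alone. RT1-Ba, the alpha chain of that molecule, was not well above background on any array, with levels between -8.75 and -6.74, and gives no difference. RT1 genes are close relatives that vary between rat strains, so a probe may read more than 1 of them, which was not tested.

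**Figure D1:**
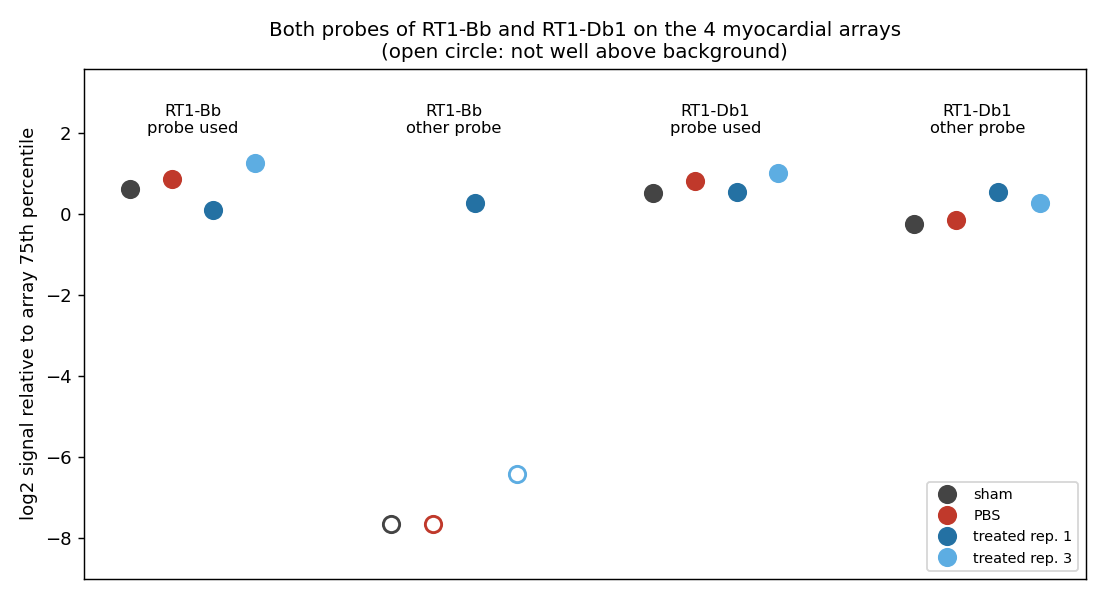
Level (log2 signal relative to the 75th percentile of the array) of both probes of RT1-Bb and of RT1-Db1 on the sham, PBS and treated arrays, 1 point an array, open where the probe was not well above background. The other RT1-Bb probe is filled only on treated replicate 1, at 0.27, and the other RT1-Db1 probe has both treated arrays above sham and PBS.

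Ciita, the coactivator that switches class II genes on, was near the dim end of the array with levels of -4.67 in sham, -4.65 in PBS, -5.16 and -4.65 in the treated pair, and -6.39 and -6.50 in ADSCs, all well above background. Sham, PBS and treated replicate 3 lay within 0.021 of each other, and treated replicate 1 lay 0.51 below PBS. ADSCs were 3.16-fold below hearts (log2 difference -1.66, SE 0.18, limma adjusted p = 0.000324).

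**Figure D2:**
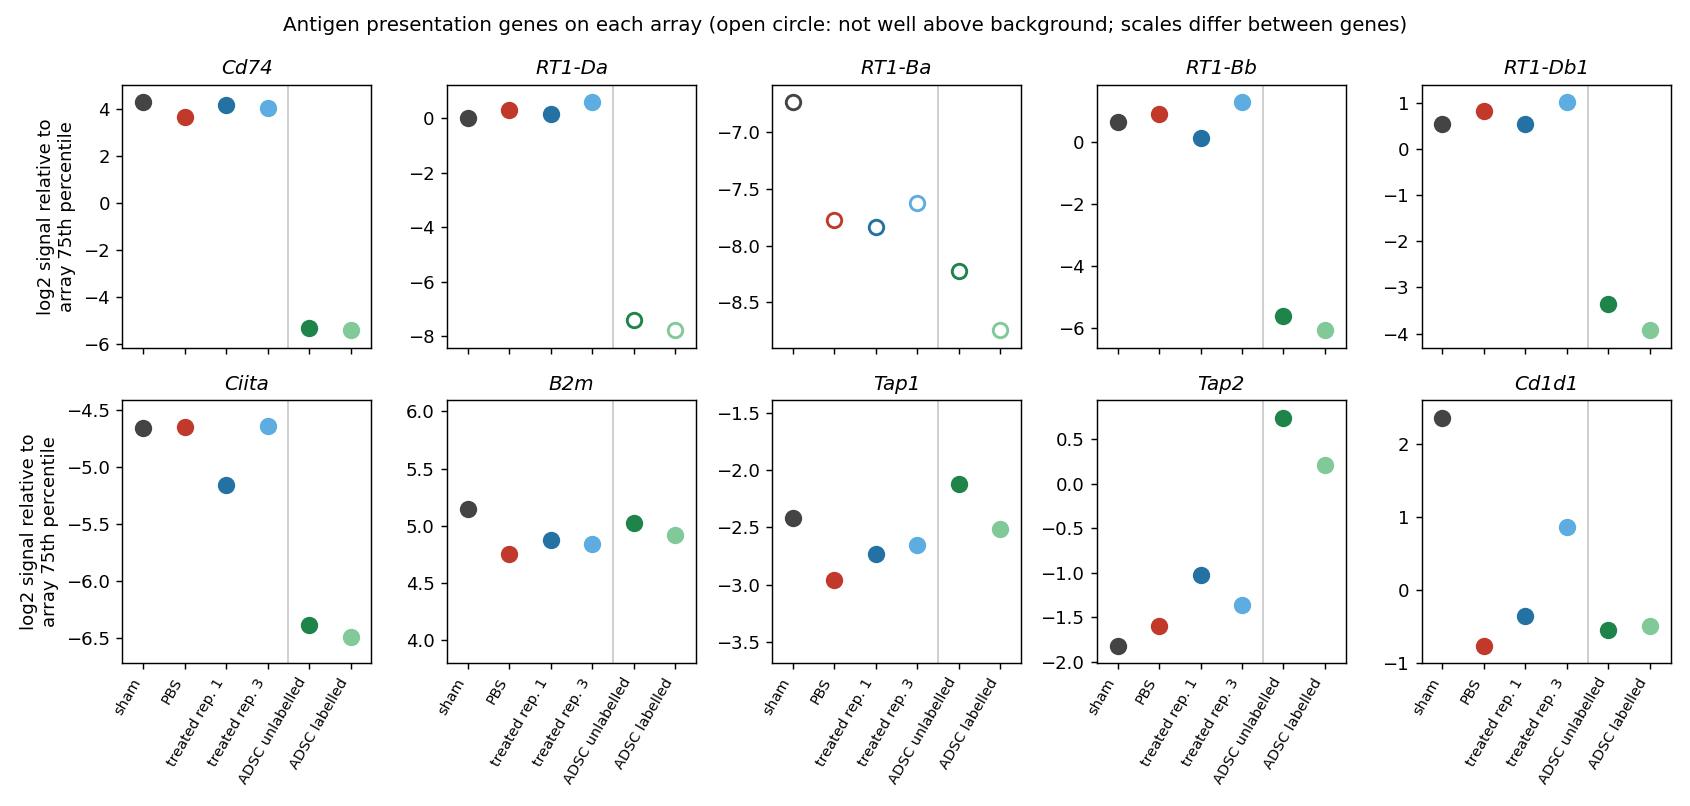
Level (log2 signal relative to the 75th percentile of the array, vertical axis, own scale for each gene) of the 10 antigen presentation genes on each of the 6 arrays, 1 point an array, open where the probe was not well above background, with a line between hearts and ADSCs. Cd74 and the class II chains RT1-Da, RT1-Bb and RT1-Db1 drop from hearts to ADSCs, B2m and Tap1 keep overlapping levels, Tap2 is higher in ADSCs, and Cd1d1 stands highest in sham at 2.36.

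The class I components did not follow that pattern. B2m, the light chain of class I and Cd1d1 molecules, had levels of 5.14 in sham, 4.75 in PBS, 4.87 and 4.84 in the treated pair, and 5.03 and 4.92 in ADSCs. Cells lay inside the range of the hearts, and the difference of 0.07 (SE 0.15) missed the threshold (limma adjusted p = 0.683). Tap1, 1 chain of the peptide pump, read -2.41 in sham, -2.96 in PBS, -2.74 and -2.65 in the treated pair, and -2.12 and -2.51 in ADSCs. Sham overlapped the cells, and the difference of 0.38 (SE 0.19) between cells and hearts missed the threshold as well (limma adjusted p = 0.128).

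Tap2, the partner chain of the pump, had levels of -1.82 in sham, -1.59 in PBS, -1.02 in treated replicate 1, -1.36 in treated replicate 3, and 0.74 and 0.21 in ADSCs. Both cell arrays lay above all hearts, 3.79-fold in the mean (log2 difference 1.92, SE 0.26, limma adjusted p = 0.000821). Among hearts the infarcted ones all lay above sham, by 0.23 for PBS and by 0.80 and 0.46 for treated replicates 1 and 3. The 2 Tap genes both lie on chromosome 20, and in PBS against sham their differences had opposite signs, -0.54 for Tap1 and 0.23 for Tap2.

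Cd1d1, a class I-like molecule that presents lipids to natural killer T cells, set the sham heart apart. Its levels were 2.36 in sham, -0.77 in PBS, -0.37 in treated replicate 1, 0.86 in treated replicate 3, and -0.56 and -0.50 in ADSCs, all well above background. PBS was 8.79-fold below sham, and only 4 of the 17250 features well above background on both arrays differed downward by as much or more. The range over the 4 hearts, 3.14, was matched or passed by 29 of 16937 features (0.171%), against a median range of 0.40. PBS and treated replicate 1 lay close to the cells, while treated replicate 3 lay between them and sham.

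The single Cd1d1 probe is printed on the array in several spots, which measure the scan and not the animal. In sham 9 spots ran from 2.26 to 2.45, in PBS 9 spots from -0.83 to -0.67, in treated replicate 1 10 spots from -0.47 to -0.30 and in treated replicate 3 10 spots from 0.69 to 0.96. Spots within an array had SDs of 0.055 to 0.087, and no heart's spots overlapped another's. The difference between hearts is therefore larger than the spread between spots, but each of sham and PBS is 1 sample. The 2 treated arrays differed by 1.22 for Cd1d1, a gap that 0.653% of 17601 features matched or passed.

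**Figure D3:**
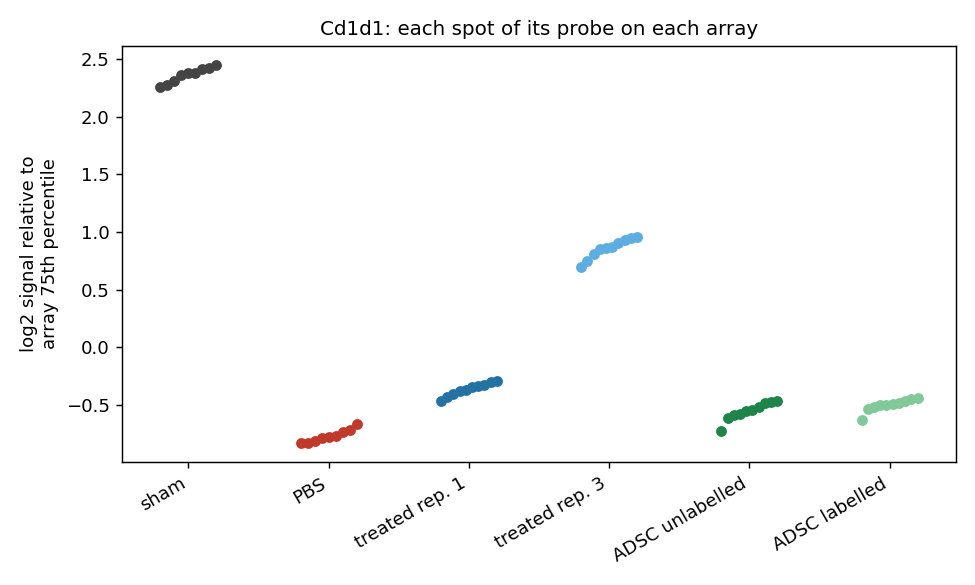
Level (log2 signal relative to the 75th percentile of the array) of each spot of the Cd1d1 probe on each of the 6 arrays, 1 point a spot, sorted by level within an array. Spots of the sham array lie between 2.26 and 2.45, above those of every other array, and spots of treated replicate 3 lie between 0.69 and 0.96.

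Infarcted myocardium given PBS was compared with sham myocardium to see what infarction does to expression. Of the 9 genes well above background on both arrays, 5 were higher and 4 lower, and Cd1d1 alone was 2-fold apart. The split rests on Ciita at 0.015, which read -0.30 with normexp background correction and -0.06 with quantile normalization, giving 4 higher and 5 lower. Over all features, 3.68% were 2-fold apart and 1.44% were 2-fold lower, and a single gene of 9 says little of the group. The median difference was 0.015 for the 9 genes and -0.05 for all features. The 3 measured class II chains were higher in PBS by 0.25 to 0.32, whereas Cd74, B2m and Tap1 were lower in PBS (log2 differences -0.63, -0.39 and -0.54). With 1 array a group none of these was tested.

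The treated hearts were compared with PBS to see what labelled ADSCs add to an infarcted heart, and this comparison shares the PBS array with the previous one. None of the 9 genes was 2-fold from PBS in both treated arrays, where 1.26% of all features were. At a limma adjusted p under 0.05, 0 of the 9 genes and 0% of 19599 features passed, and at an unadjusted p under 0.05 0 of the 9 and 1895 features did. Cd74 differed by 0.46 ± 0.09 (SD, n = 2; limma adjusted p = 0.554), Tap2 by 0.40 ± 0.24 (0.685) and Tap1 by 0.26 ± 0.06 (0.709), each higher in both treated arrays. B2m was 0.11 ± 0.02 higher. Cd1d1 was higher by 0.40 and 1.63, a mean of 1.02 ± 0.87 (limma adjusted p = 0.698). RT1-Da, RT1-Bb, RT1-Db1 and Ciita had treated arrays on both sides of PBS, and the RT1-Bb arrays were 1.17 apart, a gap that 0.818% of features matched or passed.

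Treated hearts were also set against sham, a comparison that shares its treated arrays with the previous one and its sham array with the first. Cd1d1 was 2-fold lower in both treated arrays, by log2 differences of -2.73 and -1.51, where 0.974% of all features were 2-fold apart. Its mean difference of -2.12 ± 0.87 (SD, n = 2) did not pass limma's threshold (adjusted p = 0.492, unadjusted p = 0.0331). No feature passed there either (0% of 19599, with 1886 at an unadjusted p under 0.05, Cd1d1 the only one of the 9 genes). Tap2 was 0.63 ± 0.24 higher (limma adjusted p = 0.537), and B2m and Tap1 were each 0.28 lower, with SDs of 0.02 and 0.06 (adjusted p = 0.636 and 0.640).

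**Figure D4:**
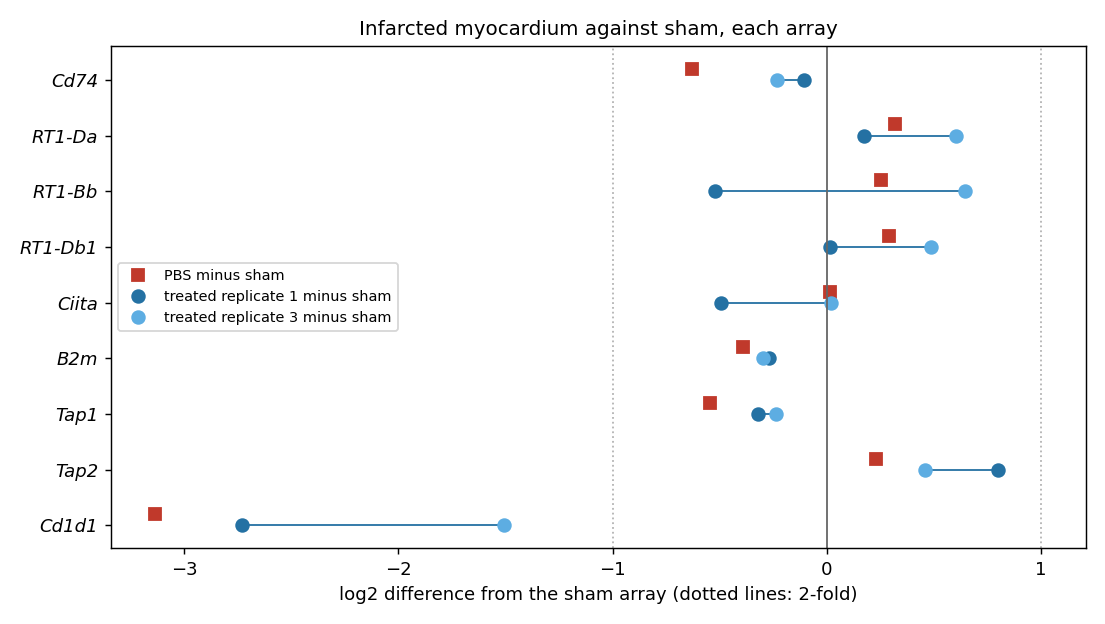
Log2 difference from the sham array (horizontal axis; dotted lines at 2-fold) for the 9 antigen presentation genes well above background in the hearts, with a square for PBS and a circle for each treated replicate, joined by a line. Cd1d1 lies beyond the 2-fold line on all 3 arrays, at -3.14, -2.73 and -1.51, and the other genes lie between -1 and 1.

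Labelled ADSCs were compared with unlabelled ones to see whether the tracer alters the cells. Of 8 genes well above background on both arrays, 7 were lower in labelled cells and 1, Cd1d1, was higher by 0.055. With quantile normalization Cd74 and Ciita turned to 0.02 and 0.07, and with the deposited values Cd74 turned to 0.02. None was 2-fold apart, against 1.04% of all features. The largest differences were -0.57 for RT1-Db1, -0.53 for Tap2, -0.46 for RT1-Bb and -0.39 for Tap1, and the median was -0.25 against -0.04 over all features. The class II levels compared here are dim, and no replicate of either cell sample is at hand.

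Setting ADSCs against myocardium was not a stated aim of the study and serves to show where the genes are highest. By limma 6 of the 9 genes tested passed, against 68.7% of 21173 features. The 5 lower in cells were Cd74, RT1-Da, RT1-Bb, RT1-Db1 and Ciita, where 35.7% of all features were lower, and Tap2 was higher. By the rule that both cell arrays lie 2-fold or more from all hearts, 4 of 8 genes were lower and 1 higher, against 15.9% lower, 14.2% higher and 30.1% in all. The median difference was -1.36 for the 8 genes and 0.03 for all features. Cd1d1 differed by -1.05 (SE 0.85, limma adjusted p = 0.307), with hearts that ranged over 3.14.

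Other genes of the pathway came from lists chosen with earlier results of these arrays known, so their counts are descriptions. In ADSCs against hearts limma called 68.7% of all features, 35.7% as lower, and the counts of a list are read against that. Immunoproteasome subunits, which cut peptides for class I, were lower in PBS than in sham for 5 of 5 genes (median -0.41), higher in treated hearts than in PBS for 5 of 5 (median 0.11) and lower than sham for 5 of 5 (median -0.33). These comparisons share arrays, and none of the 5 was 2-fold apart in them or passed limma where it was run. In ADSCs Psme1, a subunit of the proteasome activator, was lower than in hearts by a log2 difference of -1.61 (limma adjusted p = 0.000127), and Psmb8, a catalytic subunit named after its value was seen, was higher by 1.36 (limma adjusted p = 0.00108). Of 21 class I heavy chains and loading factors on the array, 19 were measured in sham and PBS. In PBS 12 were lower and 7 higher. RT1-CE3 at -1.03 and RT1-CE16 at -1.03 were past 2-fold, where 1.44% of all features were 2-fold lower.

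In ADSCs against hearts the class I list went both ways, with 10 genes higher and 9 lower of 21 tested by limma, where 68.7% of all features were called. The heavy chain RT1-CE10 was higher by 3.22 (limma adjusted p = 2.84e-05) and Pdia3, a disulphide isomerase of the loading complex, by 2.08 (5.12e-05), while the heavy chain RT1-CE7 was lower at -1.74 (8.25e-05). None of the 19 measured was 2-fold apart in both treated arrays from PBS or from sham, where 1.26% and 0.974% of all features were. In labelled against unlabelled ADSCs 18 of 21 were lower, with a median of -0.18 against -0.04 over all features.

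Class II loading factors did not all follow the class II chains. RT1-DMa and RT1-DMb are the alpha and beta chains of the molecule that exchanges peptides on class II. RT1-DMb was lower in ADSCs, with a log2 difference of -3.23 (limma adjusted p = 0.000171), and RT1-DMa was higher by 1.93 (0.000466). Cathepsin Ctsl was higher by 1.94 (limma adjusted p = 2.37e-05). Of 12 genes of this list tested, 7 were higher and 4 lower in ADSCs, beside 68.7% of all features called. Ctss, the cathepsin that trims Cd74 in antigen-presenting cells, was well above background on all hearts and on neither cell array.

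Among regulators of MHC transcription, 6 of 12 tested genes were lower in ADSCs and 2 higher, a share near the 68.7% of all features called. Past the 2-fold rule were Rfxank, a subunit of the RFX complex on the X box, at -1.24 (limma adjusted p = 0.000149) and Nfyc, a subunit of NF-Y on the Y box, at -1.66 (9.13e-05). The myeloid factor Spi1 was well above background in PBS and treated replicate 1 and on no other array. Its levels were -5.95 in sham, -6.39 in PBS, and -5.68 and -5.85 in treated replicates 1 and 3. PBS was thus the lowest heart although flagged, and the flag did not follow the level. Of interferon gamma signalling, Ifng itself was not well above background on any array. In ADSCs the kinase Jak2 was higher than in hearts by 2.40 (limma adjusted p = 3.69e-05) and the chemokine Cxcl10 by 2.13 (0.00263), and 5 of 10 genes tested were higher and 2 lower, again near that share.

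Costimulatory molecules, which T cells read together with the MHC, were sparse. Cd80 and Cd86 were not well above background on any array. Cd274, which encodes PD-L1, was lower in ADSCs than in hearts at -2.32 (limma adjusted p = 0.000130). Cd83 was higher in labelled than in unlabelled ADSCs by 1.57, at -2.64 against -4.21. It was the single costimulatory gene of the 3 measured to be 2-fold apart there, where 1.04% of all features were. Within the hearts none of the 3 was 2-fold apart.

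Macrophage and leukocyte markers were lower in ADSCs, as the class II genes were, and dendritic cell markers were lower in part. All 10 macrophage markers were lower in ADSCs by limma, where 35.7% of all features were, with Lyz2 (lysozyme) at -6.89, C1qb (a complement subunit) at -3.66 and Csf1r (a growth factor receptor) at -2.98. Their summed level, the sum of signals relative to the 75th percentile, was 13.8 to 17.9 in hearts and 0.684 to 0.703 in cells, where Cd163, Mrc1, C1qc and Itgam were not well above background on either array. All 4 leukocyte genes were lower too, with Coro1a at -6.07, Laptm5 at -4.83 and Lcp1 at -4.37. Ptprc, the pan-leukocyte CD45, was not well above background in cells. For B cells 4 of 4 tested markers were lower, and for T and NK cells 6 of 8 (Nkg7 at -5.57). For dendritic cells 3 of 7 were lower and 0 higher by limma. The lower ones were Clec10a (-7.58) and Clec9a (-3.94), not well above background in cells, and Irf8 (-1.62). Batf3, the single dendritic marker well above background on all arrays, was at 0.00088 (limma adjusted p = 0.997). The part of these cells in the class II difference was not tested.

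**Figure D5:**
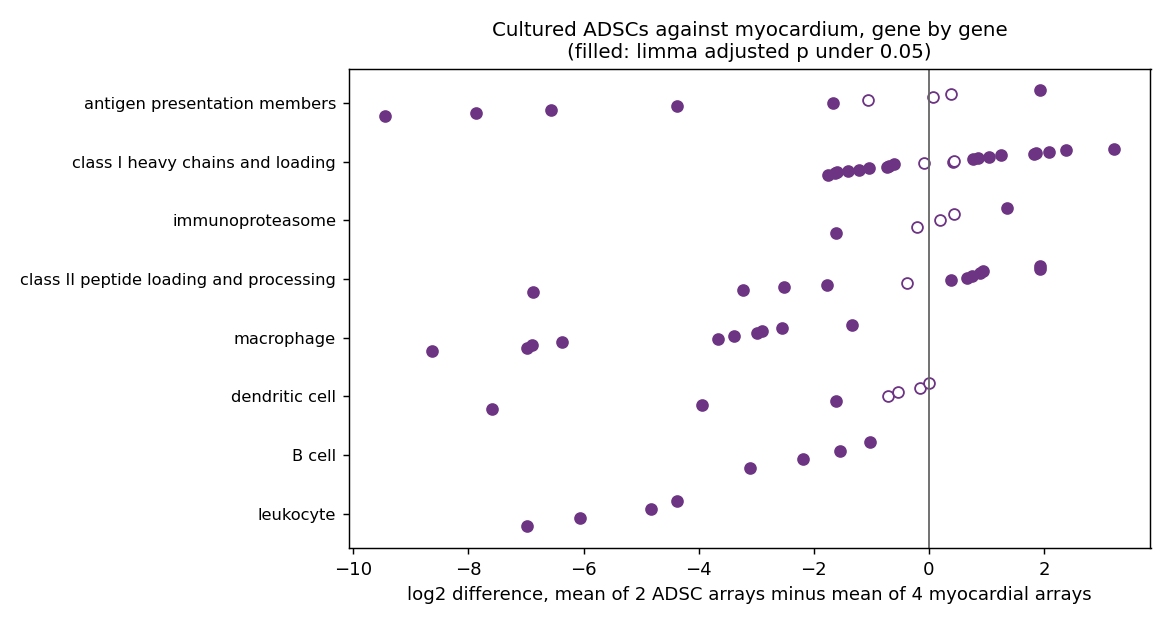
Log2 difference between the mean of the 2 ADSC arrays and the mean of the 4 heart arrays (horizontal axis) for each tested gene of the antigen presentation genes and of lists of pathway genes and cell type markers, 1 point a gene, filled where the limma adjusted p was under 0.05. Macrophage and leukocyte markers lie left of 0 throughout, as do 4 class II genes and Ciita, while class I and class II loading lists lie on both sides.

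Endothelium, which can also carry class II, was lower in ADSCs for 4 of 4 genes by limma, where 35.7% of all features were. Pecam1 was at -6.43, Kdr at -4.50 and Tek at -3.10. In PBS against sham the macrophage markers went both ways, 5 higher and 4 lower of 9 measured. Their summed level was 17.9 against 14.6. The brightest probes, Lyz2, C1qb and C1qa, weigh most in that sum and were higher in PBS by 0.19, 0.45 and 0.48. The 3 measured dendritic markers were higher in PBS, Clec10a by 0.33, Clec9a by 0.50 and Batf3 by 0.51, as the 3 class II chains were, while Cd74 was lower. All 4 measured B cell markers were lower in PBS, with Cd79b at -1.28. Of the T and NK markers 4 of 5 were lower, from -1.19 for Gzmb to 0.18 for Cd8a. Of the endothelial ones 3 of 4 were, with Cdh5 at -1.24, Kdr at -0.11, Pecam1 at -0.09 and Tek at 0.20. The part of these cells in the differences of Cd1d1, Cd74 and the class II chains was not tested. The cardiomyocyte gene Nppa, a wall-stress hormone, was 3.70 higher in PBS than in sham. Nppa was lower in both treated arrays than in PBS (mean -2.25, limma adjusted p = 0.561). Of the 6 cardiomyocyte markers Nppa was the 1 higher in PBS than in sham, and 5 were lower, with a median of -0.45 over the 6.

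Across the 6 arrays, the named genes most like the class II genes were sought among 10427 genes well above background on all hearts. No such flag was required in ADSCs. The measure was the root mean square difference from the mean of Cd74, RT1-Da, RT1-Bb and RT1-Db1, each gene centred on its own mean. The 5 nearest were Atp2a3 (0.08), Lyz2 (0.11), Krt24 (0.13), Olr59 (0.14) and Gimap7 (0.15). In unlabelled and labelled ADSCs Atp2a3 read -8.41 and -8.60, Krt24 -8.78 and -8.86, and Olr59 -9.12 and -9.18. The lowest levels called well above background on those arrays were -7.84 and -7.96. The drop of Atp2a3, Krt24 and Olr59 from hearts to ADSCs therefore rests on dim cell signal. Gimap7 read -7.33 and -7.51 in unlabelled and labelled ADSCs, little above those lowest levels, so its drop rests on dim signal as well. Lyz2 is a macrophage marker and Gimap7 a lymphocyte GTPase. Atp2a3 is a calcium pump of the endoplasmic reticulum, Krt24 a keratin and Olr59 an olfactory receptor. The class II genes themselves lay between 0.32 (RT1-Bb) and 1.27 (RT1-Db1) from their mean.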

How the data were processed

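Total RNA was labelled with Cy3 and hybridised to 1 rat array design, per the labels. The authors deposited scanner output with intensity values (processed and median signal, background) and quality flags for each spot; the submitters' processing notes name Agilent Feature Extraction 11.0.1.1. A log2 table was deposited besides, and the sources used here do not say how it was made. It followed the scanner's log2 signal (r at least 0.9998 for every array), has a median of 8.85 for each heart and 9.67 for each cell array, and covers 18016 features of the hearts and 19825 of the cells. It served as an alternative.

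Levels are log2 processed signal minus the 75th percentile of the array, a signal of 772 to 1276 in hearts and 2360 to 2615 in cells. Control and outlier spots were left out of the levels, and spots sharing a probe were averaged. A probe was called well above background where at least 50% of its spots were flagged so. Probes were named through their accession and a RefSeq table (assembly GRCr8, used here for names and promoter sequences, while the file headers name an older build), and 18355 of 30367 probes received a symbol. Symbols from this table may hide related genes that share a probe. A gene was read from its brightest probe; with unnamed probes counted singly this made 27443 features.

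Tests were made with limma 3.58.1 in R 4.3.3 (lmFit, eBayes, Benjamini-Hochberg over all features well above background on at least 1 array of the fit). One fit held the 4 hearts in 3 groups, whose spread rests on the treated pair, and the other held all 6 arrays as hearts and cells. The second fit took the conditions within hearts and within cells as replicates. The fit was tested on simulated data. The 2-fold rule was applied where all arrays compared were well above background, and required every pair of arrays to be 2-fold apart where a group held several. The number of arrays limits the precision. All arrays lay on 1 slide in 1 scan, so neither could be tested as a batch. Genes, lists and tests were chosen with earlier results of these data known. Named are all the members, up to 3 genes of a list past the 2-fold rule in a comparison, and the 5 genes of nearest pattern, except that 1 list gene is not reported here; genes named for their background flags and the dendritic, T and NK and endothelial markers under 2-fold are named besides, chosen after their values were seen. The class II genes for that pattern were those well above background on at least 1 array, which leaves out RT1-Ba. Alternatives covered background correction (normexp with offset 50 on the median signal, in the absence of a mean signal column), normalization, the deposited values, the filter, the probe, the fold, the variance model and left-out arrays. Figures were drawn with matplotlib 3.10.9.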

Additional observations from a re-analysis of the deposited data

Results flagged for a closer look

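One signal lay in a measurement that the comparisons do not use. The second probe of RT1-Bb had a level of 0.27 on treated replicate 1 and was well above background there, and was not well above background on any other array. In sham and PBS it read -7.65 on each, and its level on treated replicate 1 lay 6.70 above the next heart, treated replicate 3. The probe used for the gene had its lowest heart level, 0.11, on that same array. By a count chosen after these values were seen, 7 of 30359 probes were well above background on treated replicate 1 alone among the hearts and at least 5 (log2) above the next heart, and RT1-Bb was the single named gene among them. The same count was 3 for sham, 6 for PBS and 3 for treated replicate 3, so such lone probes are found on every heart array.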

How the results depend on the processing

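Counts of the antigen presentation genes past a threshold were within 1.5 times the reported count in 61 of 64 results under alternatives. Of 317 differences of single genes under alternatives, 14 changed sign, 0 of them in ADSCs against hearts, and 1 crossed limma's threshold. The count 2-fold apart in PBS against sham, 1 as reported, was 2 with no filter on dim probes (RT1-Ba added, not well above background) and 2 at a 1.5-fold threshold (Cd74 added). Without treated replicate 1, 1 gene (Cd1d1) was 2-fold above PBS and without replicate 3, 0 were. In PBS against sham Ciita went from 0.015 to -0.30 with normexp and -0.06 with quantile normalization. In labelled against unlabelled cells quantile normalization gave Cd74 0.02 and Ciita 0.07, and the deposited values gave Cd74 0.02. Against PBS, leaving out a treated replicate gave Ciita -0.51 to 0.0059, RT1-Da -0.14 to 0.29, RT1-Bb -0.77 to 0.39 and RT1-Db1 -0.27 to 0.20. Against sham it gave Ciita -0.49 to 0.021 and RT1-Bb -0.52 to 0.64. The mean of both probes gave RT1-Bb 2.19 and RT1-Db1 0.26 against PBS, and normexp gave RT1-Db1 0.0042; the second RT1-Bb probe's lone signal enters that mean. Tap1 in ADSCs against hearts passed limma only with the deposited values (0.58, adjusted p = 0.0207), and RT1-Bb in labelled against unlabelled cells moved from -0.46 to -0.11 with normexp. The cause was not tested.

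Scaling moved the median of all features in ADSCs against hearts from 0.03 to -0.15 with normexp, 0.15 with quantile normalization and 0.23 with the deposited values. Normexp also moved it to -0.14 in PBS against sham and -0.13 in treated against sham. Over all features, limma called 0 in treated against PBS as reported, and 82 with normexp and 59 with a trended, robust variance. Against sham it called 0, and 50, 54 and (deposited values) 2. The antigen presentation genes called in those comparisons stayed at 0 under each. In ADSCs against hearts it called 11593 to 19126 features. Signals near background limit RT1-Ba, RT1-Da in cells and the second probes. No paired analysis was possible because the groups compared share fewer than 2 replicate numbers.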
